A study of Saccharomyces cerevisiae and Neurospora crassa and Schizosaccharomyces pombe with 13 samples.

Results

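Of the 9730 genes in the deposited annotation of the filamentous fungus Neurospora crassa, 283 begin inside another gene. They were found by position alone: a gene's span ran from the lowest to the highest exon base over all its transcripts, its start was the first base on the plus strand or the last on the minus strand, and that base had to lie in the span of a different gene. The gene that holds the start is called the host. The study made nucleosome footprints by MNase-seq, in which micrococcal nuclease removes the DNA between nucleosomes, from 3 fungi in 13 libraries. The 2 N. crassa libraries, both labelled wild type, came from asexual spores (conidia) grown for 3.5 h until over 70% had germinated, and were prepared with the rapid protocol after 10 min in 1% formaldehyde. The other 11 libraries are of Saccharomyces cerevisiae and Schizosaccharomyces pombe, which this annotation does not cover. The annotation belongs to no library and holds no measurement of one, so all values here are lengths, places and counts of annotated genes.

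Footprint profiles are usually averaged over many genes aligned at their starts. In fungi an active start commonly has a nucleosome-poor stretch before it and a regular row of nucleosomes after it. Where the start sits inside another gene, the DNA next to it is also part of another transcribed unit, on 1 side of the start or on both. Transcripts made from opposite strands of one stretch of DNA are complementary and are called natural antisense transcripts; a known case in N. crassa is the antisense RNA of the clock gene frequency. On the same strand, an overlap means that the upstream transcript reads past the start of the downstream one.

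The 283 genes lay in 282 hosts and formed 284 member-host pairs, since NCU00798 began inside 2 genes and 2 hosts each held 2 starts. On the 7 sequences of the annotation, 1.91% to 3.67% of genes began inside another gene. Sequence 5 had the highest share, 58 of 1580 genes, and sequence 3 the lowest, 24 of 1255. On sequence 1 there were 78, on sequence 2 there were 26, on sequence 4 there were 46, on sequence 6 there were 24 and on sequence 7 there were 27. Of the members, 166 were hosts themselves, and together members and hosts made up 399 genes, 4.10% of all.

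The pairs were sorted into 3 arrangements, which by their definitions cover every case. In 166 of them the genes were divergent: they pointed away from each other and each start lay inside the other gene, so that they are 83 gene pairs seen from both sides. This reciprocity follows from the definitions, since a member on the opposite strand that is not nested must reach past the host's start. In 70 the member was nested, with its whole span inside the host. In 48 the pair was tandem, on the same strand, with the downstream gene beginning before the upstream one ended. All 70 nested genes were on the strand opposite to their host. Opposite strands thus accounted for 236 of the 284 pairs, 83.7% ± 5.20 of those on a sequence (SD over the 7 sequences). Divergent pairs made up 59.3% ± 8.09, nested ones 24.4% ± 7.26 and tandem ones 16.3% ± 5.20. These shares count each divergent gene pair from both sides and every other pair once. Of the 201 distinct gene pairs, 83 were divergent, 70 nested (34.8%) and 48 tandem (23.9%). Counted by gene pair, the shares of divergent pairs and of opposite strands are therefore lower.

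**Figure D1:**
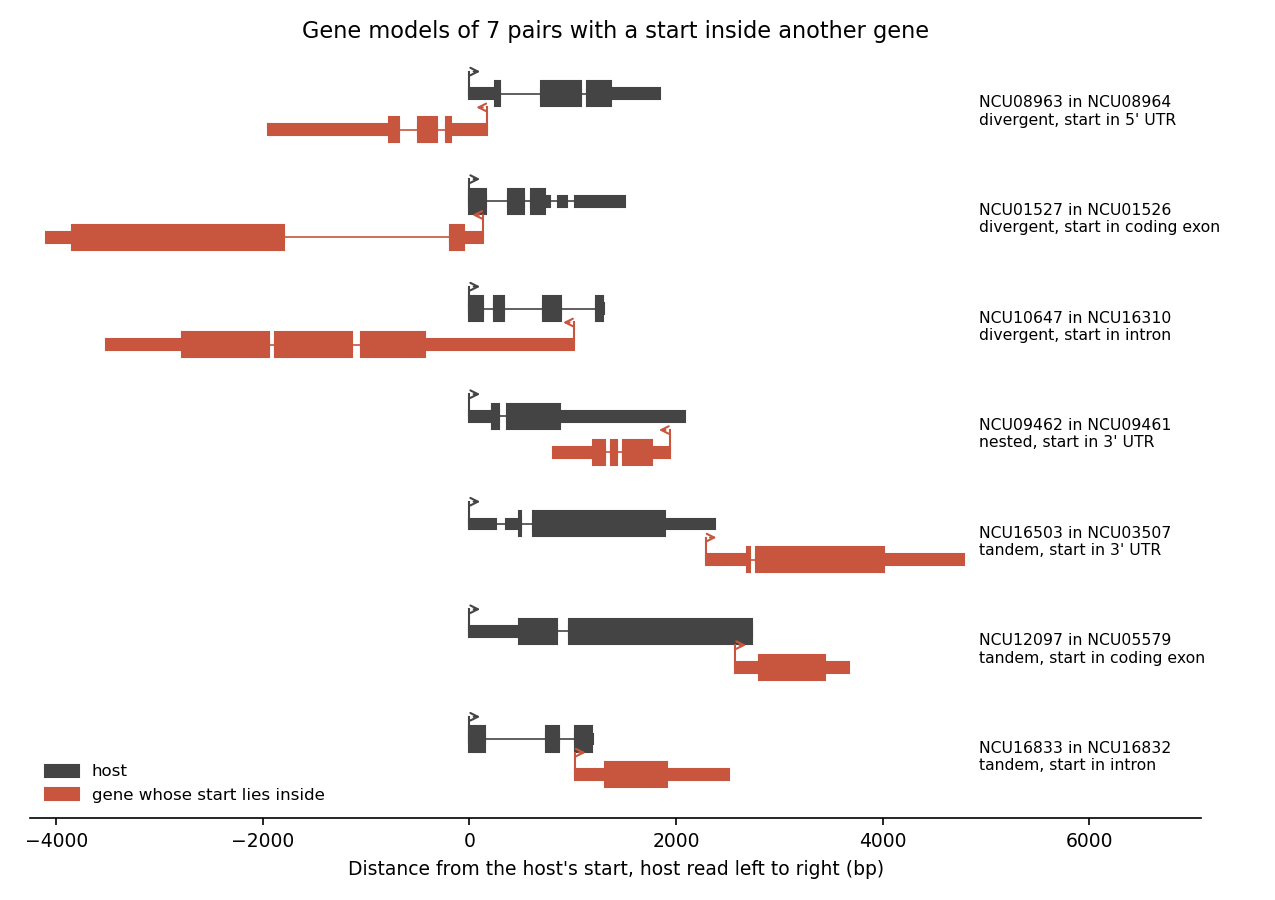
Gene models of the pairs with the median depth of start in each group of place and strand relation, drawn to scale in bp from the host's start with the host read left to right; thick boxes are coding, thin boxes UTR exons, lines introns, and arrows mark the starts. In the divergent pairs the member lies mostly to the left of the host's start, the nested gene lies wholly under its host, and the tandem genes continue beyond the host's end.

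Starts lay in untranslated regions (UTRs) of the host more often than in its coding exons. The host's 5' UTR held 120 starts, its 3' UTR 85, a coding exon 49 and an intron 30. As shares of the pairs on a sequence these were 43.6% ± 7.76, 29.2% ± 8.41, 16.8% ± 7.63 and 10.3% ± 3.37 (SD, n = 7 sequences). The place went with the arrangement, which partly sets it: a divergent member reaches past the host's start and a tandem member past the host's end. Of the 166 divergent starts, 102 lay in the host's 5' UTR, 39 in a coding exon, 20 in an intron and 5 in the 3' UTR. For the 39 and the 20, the host's annotated 5' UTR had a median and an upper quartile of 0 bp. Most of these starts therefore could not have been placed in a 5' UTR. Of the 70 nested starts, 47 lay in the 3' UTR, 18 in the 5' UTR, 4 in an intron and 1 in a coding exon. Of the 48 tandem starts, 33 lay in the 3' UTR, 9 in a coding exon and 6 in an intron, and 0 in the 5' UTR.

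**Figure D2:**
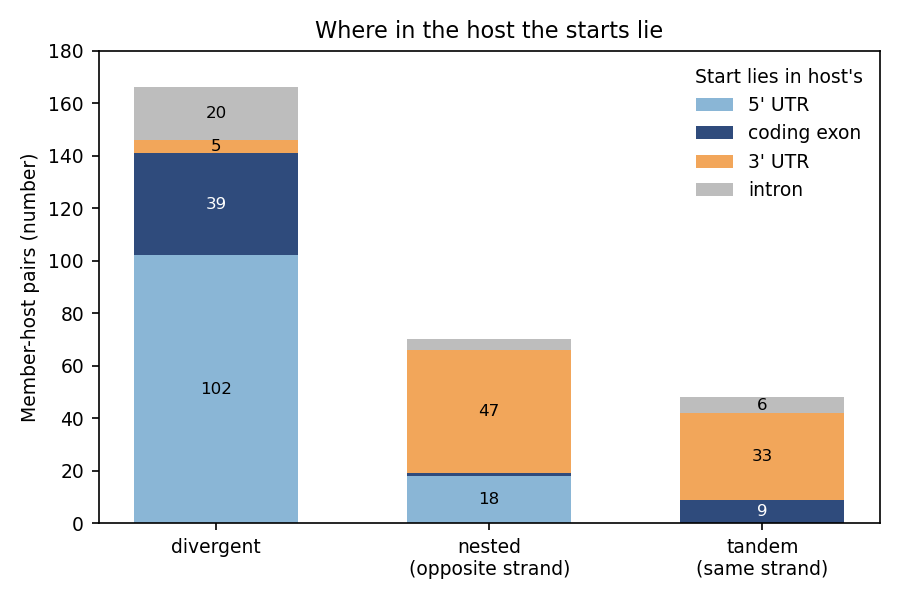
Number of member-host pairs (vertical axis) in each arrangement, stacked by the part of the host in which the start lies. The 5' UTR holds most divergent starts (102 of 166), and the 3' UTR most nested (47 of 70) and most tandem ones (33 of 48).

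Overlaps of the coding regions themselves were almost absent. Coding bases of member and host coincided in 3 gene pairs, by 2 bp in each, and in each of the 3 the shared bases were those of the start codons. Neither NCU16719 nor NCU09651 on sequence 4 has an annotated 5' UTR, so their whole overlap is these 2 bp. The start codon of NCU16719 occupies 71004 to 71006 on the minus strand and that of NCU09651 occupies 71005 to 71007 on the plus strand. NCU09970 and NCU09971 on sequence 1 have start codons at 2346395 to 2346397 and 2346396 to 2346398, and NCU00179 and NCU00180 on sequence 3 at 2916089 to 2916091 and 2916090 to 2916092. The annotated overlaps of the other gene pairs therefore rest on UTRs or introns of at least 1 of the 2 genes. UTR ends were not compared with any transcript data here.

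Among divergent pairs, the stretch covered by both genes, which is the distance between the 2 starts, was 198 bp in the median of the 83 gene pairs. Its quartiles were 50.5 and 461.5 bp, and its extremes 1 and 2995 bp. It reached 150 bp, about the length wrapped around a nucleosome core, in 57.8% of the divergent members. The shortest overlaps, of 1 bp, joined NCU04403 with NCU16819 and NCU03601 with NCU03602. Their coding regions were further apart, by 659 bp in the median pair and by 376 and 979 bp at the quartiles. By place of their 2 starts, 31 gene pairs combined a 5' UTR with a coding exon, 26 had both in a 5' UTR and 16 combined a 5' UTR with an intron.

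Divergent pairs commonly joined a gene with a 5' UTR to one without. In 53 of the 83 gene pairs the start codon of exactly 1 gene lay inside the other gene, in 26 neither did and in 4 both did. Of the 61 divergent members whose start codon lay inside the host, 50 had no annotated 5' UTR, so that their start is their start codon. The reverse holds for the partner: exons of 61 divergent members covered coding bases of their host. NCU08963 on sequence 5 was the member of median depth among all 120 opposite-strand starts in a 5' UTR, nested ones included. It and NCU08964 have both starts in 5' UTRs and share 170 bp. This length is not the median of the pairs with both starts in 5' UTRs. NCU08963 runs on the minus strand from 5846121 to 5848244 and NCU08964 on the plus strand from 5848075 to 5849919. NCU01527 on sequence 2 shows the asymmetric form. Its start lies 131 bp inside NCU01526, which has no 5' UTR, 5 exons and a coding length of 450 bp.

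The deepest divergent starts in coding exons were those of NCU09968 and NCU02566. NCU09968 on sequence 6 (minus strand, 309546 to 315476, 6 exons, 2 transcripts) began 1364 bp inside NCU09969, which has no annotated UTR and 9 exons. Its 5' UTR of 1646 bp overlay 1190 coding bp of NCU09969. Of its 2 transcripts, 1 began inside the host. NCU02566 on sequence 1 began 652 bp inside NCU02567, and their coding regions lay 391 bp apart although each gene's start codon was inside the other gene. NCU10647 on sequence 1, the member of median depth among starts in introns on the opposite strand, has 3 transcripts, all with their starts in NCU16310. It begins in a coding intron of 341 bp.

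In 5 divergent cases the start had passed the host's whole coding region and lay in its 3' UTR. NCU07126 and NCU07127 on sequence 6 are 2 of them, and are nearly coextensive: NCU07126 runs on the minus strand from 57463 to 60475 and NCU07127 on the plus strand from 57481 to 60490. They share 2995 bp, 99.4% of the former and 99.5% of the latter, and each covers the other's entire coding region (741 and 699 bp), while the 2 coding regions lie 255 bp apart. NCU05338 on sequence 2 has a 5' UTR of 3026 bp and a coding length of 312 bp, and its exons overlay all coding bases of NCU05340 (1131 bp and the stop codon). NCU04226 on sequence 5 has a 5' UTR of 2682 bp over NCU04225, with a coding length of 318 bp. NCU00126 on sequence 3 has a 5' UTR of 1282 bp over NCU16659, with a coding length of 771 bp. The overlap was shortest in NCU00126, at 833 bp, and between 2498 and 2995 bp in the other 4. NCU05338 and NCU04226 were chosen after their values were seen.

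**Figure D3:**
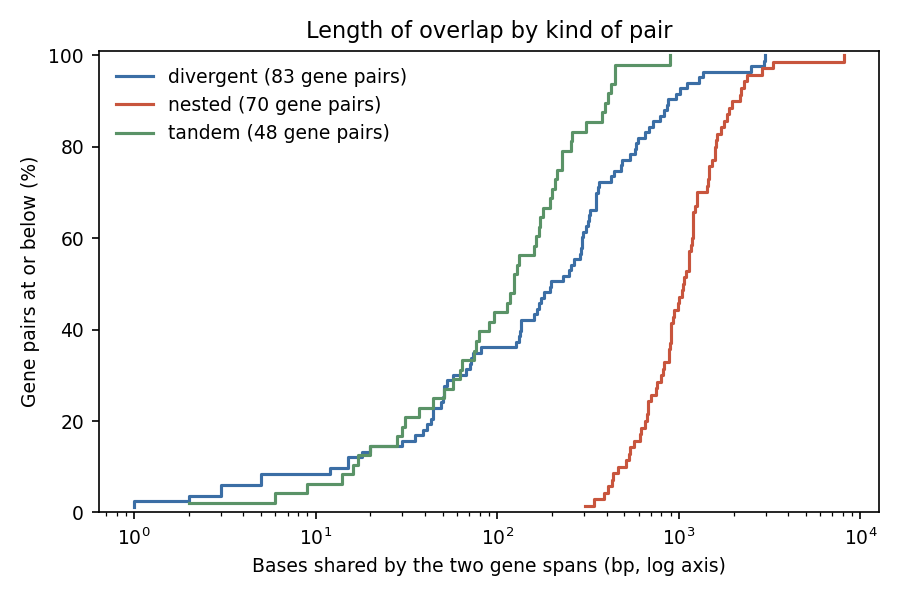
Share of gene pairs (%, vertical axis) whose spans share at most the number of bases on the horizontal axis (bp, log axis), for the 83 divergent, 70 nested and 48 tandem gene pairs. The nested curve begins at 303 bp and lies to the right of the others for most of its course; the tandem curve ends at 889 bp.

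Nested genes were short genes inside long ones. The median span was 1061 bp in the nested genes, with quartiles of 712.5 and 1460 bp, and 3655 bp in their hosts; by the rule of nesting the member had to be the shorter. The median coding length was 738 bp in the nested genes and 1322 bp in their hosts. Nested genes took up a median of 30.7% of the host's span. They had a single exon in 33 of 70 cases and neither UTR in 32, whereas 1 of the 70 hosts lacked a 5' UTR. The hosts' 3' UTRs had a median of 1374 bp, against 282 bp over all genes that do not begin in another gene. This length is part of what makes a host, and was not tested.

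Most nested genes lay wholly within 1 UTR of the host. The 3' UTR, with its introns, held 39 of them entirely and the 5' UTR 21. The other 10 had exons over coding bases of the host. Nested genes with a start in the 3' UTR run from there towards the host's coding region, and began a median of 149 bp from the host's nearer edge. Over all 70, the start lay at a median of 87.0% along the host (quartiles 43.6% and 96.6%). NCU09462 in NCU09461 on sequence 2 is the nested gene with the median depth for its group. It has 3 exons and a coding length of 462 bp, begins 149 bp inside the host's end and itself ends in the host's coding exon, where it covers 74 coding bp.

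**Figure D4:**
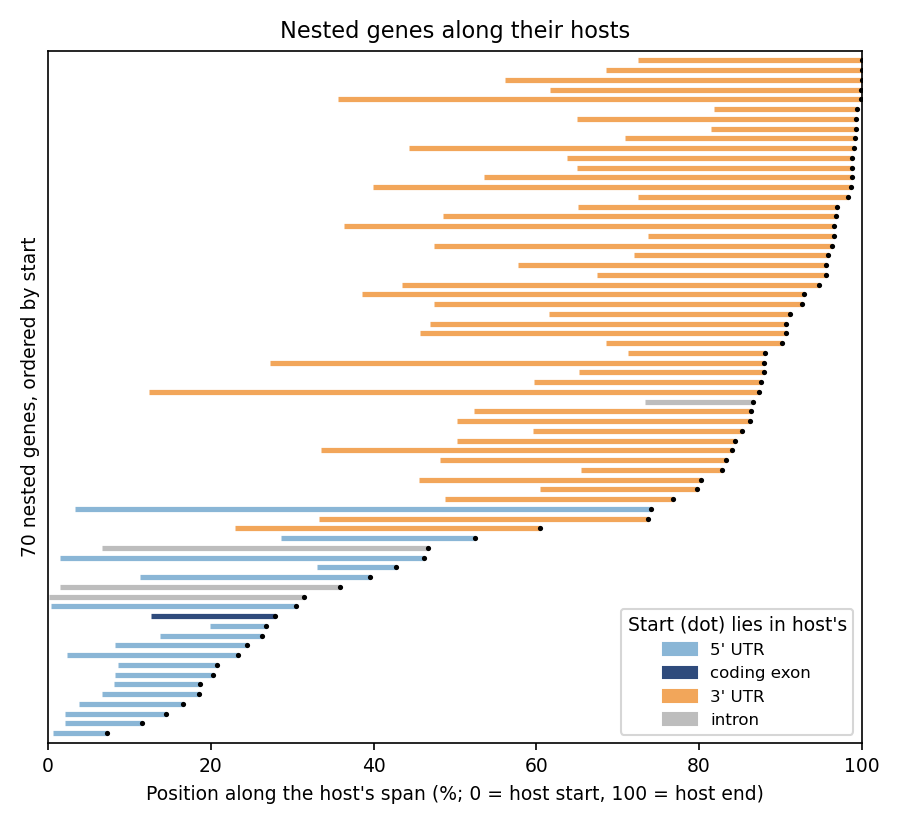
Position of the 70 nested genes along their hosts (horizontal axis, % of the host's span from its start to its end); each line is 1 nested gene from its start (dot) to its end, coloured by the part of the host in which it starts. Genes that start in the 3' UTR (47) lie to the right, and those that start in the 5' UTR (18) mostly to the left.

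The longest nested gene exceeded its host's coding region several times over. NCU09638 on sequence 4 lies on the plus strand from 11075 to 19163 and has a span of 8089 bp, 4 exons and a coding length of 7884 bp. Its host NCU09637, on the minus strand at 8110 to 19545, has a coding length of 1290 bp and a 5' UTR of 9173 bp, inside which NCU09638 lies entirely. Next in length were NCU07955 (3311 bp), which lies in the 3' UTR of 3710 bp of NCU07954 on sequence 4, and NCU08612 (2881 bp, 6 exons) in NCU08611 on sequence 1. NCU04265 on sequence 5 (2375 bp) and NCU00695 on sequence 1 (2270 bp) followed. NCU07955, NCU04265, NCU08612 and NCU00695 each began within 52 bp of the host's end.

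Of the starts in a 5' UTR, the deepest were those of NCU00143 and NCU09638. The former lies 2967 bp inside NCU00144 on sequence 3, counted from the nearer edge, and the latter 2966 bp inside its host. The 5' UTR of NCU00144 measures 4118 bp, and NCU00143 has 2 exons, a coding length of 468 bp and no UTR. NCU17101 on sequence 6 begins 1766 bp inside NCU05511, within a 5' UTR of 2376 bp. Deepest among nested starts in the 3' UTR were NCU00798 in NCU00799 on sequence 1 (1677 bp) and NCU05586 in NCU05587 on sequence 6 (869 bp); NCU05586 has 2 transcripts, and both begin in the host.

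A gene sitting in another gene's intron was the exception. Of the 4 nested genes that began in an intron, NCU05209, NCU07944 and NCU16988 began in 5' UTR introns of 84, 108 and 87 bp and ran on into 5' UTR exons. NCU09828 on sequence 5 was the 1 nested gene contained in a single intron: it has 2 exons and a span of 433 bp, and lies in an intron of 1063 bp in the 3' UTR of NCU09827, so that the 2 genes share 0 exonic bases. Over all arrangements, the introns at the 30 starts measured 225 bp in the median, with quartiles of 153 and 450.5 bp. Over the introns of every gene's longest transcript the median was 75 bp. A longer intron offers more bases for a start to fall in, so this is a description. Of the introns that held a start, 21 lay in the host's coding region, 6 in its 5' UTR and 3 in its 3' UTR.

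Tandem overlaps were short. The 48 pairs shared 123.5 bp in the median, with quartiles of 49.25 and 216.5 bp, and 43.75% of them reached 150 bp. The shortest was that of NCU06281 and NCU06282, at 2 bp. The downstream gene began after the host's stop codon in 35 pairs, by a median of 364 bp, and before it in 13 (median position -162 bp). Of these 13, 9 began within 200 bp of the stop codon. The downstream start codon lay inside the upstream gene in 8 of the 48 pairs, and in the others the part inside the host was the downstream 5' UTR. A 5' UTR was annotated in all but 3 of the 48 members.

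Among tandem starts in the 3' UTR, the deepest were NCU00102 in NCU00101 on sequence 3 (443 bp), NCU12021 in NCU12022 on sequence 7 (406 bp) and NCU10165 in NCU10166 on sequence 5 (308 bp). NCU16503 in NCU03507 on sequence 2 had the median depth, 90 bp. NCU12021 is 1 of 8 tandem members whose start codon lies inside the host, and 323 of its coding bases lie in the 3' UTR exon of NCU12022. In the coding exons, NCU16318 began 445 bp inside NCU09085 on sequence 1, a gene with no annotated 3' UTR, and its 5' UTR of 776 bp covered 445 coding or stop codon bases of it. NCU16460 began 424 bp inside NCU00499 on the same sequence, and NCU12097 began 163 bp inside NCU05579 on sequence 6.

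NCU01903 on sequence 1 showed the longest tandem overlap, 889 bp, which is 74.2% of its host: NCU16347 has a span of 1198 bp and a coding length of 189 bp. Starts in introns on the same strand lay in coding introns in 4 of 6 cases. NCU08332 began 392 bp inside NCU16405, whose coding length is 174 bp, in an intron of 537 bp. NCU03541 began 377 bp inside NCU03540, and the coding regions of these genes lie 21 bp apart. NCU16833 began 172 bp inside NCU16832 on sequence 4, at the last base of an intron, so that 171 of the shared bases lay in exons of both genes. NCU17100 began 213 bp inside NCU05512 on sequence 6.

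Several transcripts were annotated for 23 of the 283 members (8.13%), a share near the 9.26% of the other genes. In 13 of the 23 every transcript began inside the host, and in 8 only 1 did. NCU06076 on sequence 7 has 4 transcripts, and all 4 begin inside NCU06075.

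Genes that begin inside another gene had shorter coding regions than the rest. The sequence medians averaged 872 ± 220 bp for the members and 1267 ± 19.7 bp for the other 9447 genes (SD, n = 7 sequences). The members' median was 877.5 bp on sequence 1, 705 bp on sequence 2, 861 bp on sequence 3, 808.5 bp on sequence 4, 657 bp on sequence 5, 865.5 bp on sequence 6 and 1332 bp on sequence 7, while those of the other genes lay between 1232 and 1290 bp. Thus 6 of 7 sequences had the lower median in the members and sequence 7 the higher. The mean difference was -395 ± 216 bp (SD; exact two-sided permutation test by sign flips across sequences, p = 0.0313, adjusted p = 0.0313 over 3 tests). With any 1 of sequences 1 to 6 left out the exact permutation p was 0.0625, and without sequence 7 the difference was -471 bp (exact permutation p = 0.0313). By arrangement, the median coding length was 1004 bp in divergent, 892.5 bp in tandem and 738 bp in nested members. Without the nested ones the difference was -335 ± 241 bp (exact permutation p = 0.0313), and for the nested ones alone it was -607.5 ± 197 bp (exact permutation p = 0.0156). A nested gene had to fit inside its host, so the rule itself favours short genes. The value for nested ones alone cannot be told apart from that choice. Among genes with an annotated 5' UTR it was smaller, -232 ± 152 bp (exact permutation p = 0.0156). Coding regions under 500 bp occurred in 86 members (30.4%) and in 1255 other genes (13.3%).

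**Figure D5:**
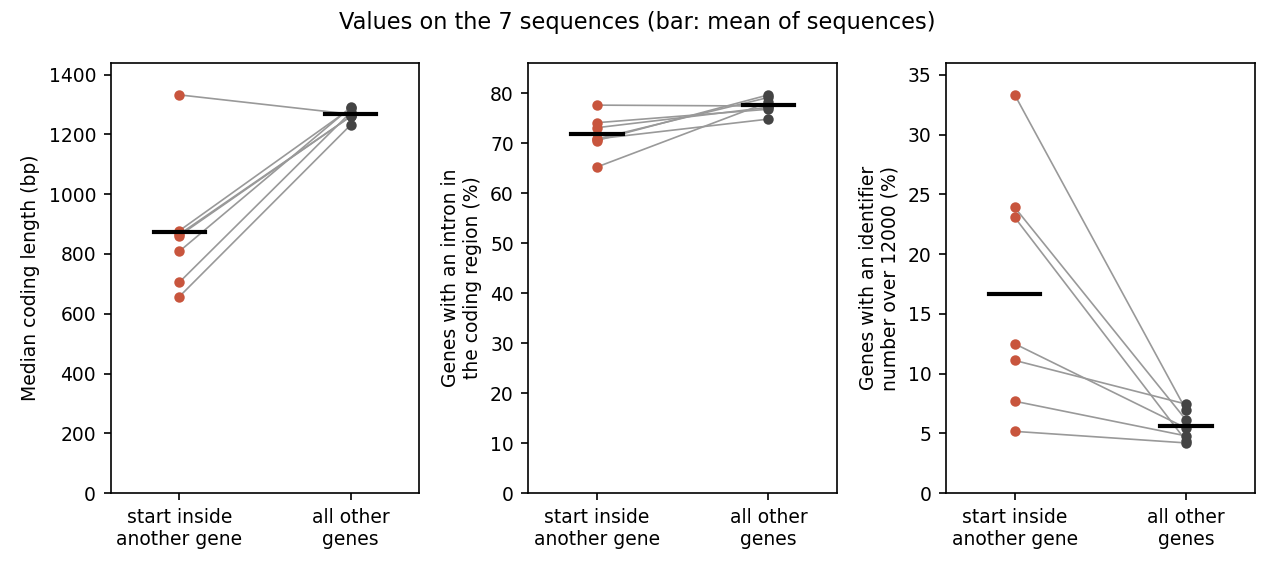
Median coding length (bp), share of genes with an intron in the coding region (%) and share with an identifier number over 12000 (%) on each of the 7 sequences, for genes that begin inside another gene and for all other genes; lines join the values of a sequence and bars are means of sequences. Coding length is lower in the members on 6 of 7 sequences, the intron share on 6 of 7, and the share of high identifiers is higher on 7 of 7.

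The members also differed in their identifiers, which consist of NCU and a number. The sources used here do not say what the number records. Numbers over 12000 belonged to 48 of the 283 members, 16.7% ± 10.3, and to 509 of the 9447 other genes, 5.62% ± 1.27. The share was higher in the members on 7 of 7 sequences, by 11.1 ± 9.81 percentage points (SD; exact two-sided sign-flip permutation p = 0.0156, the smallest that 7 sequences allow; adjusted p = 0.0313). The difference ranged from 0.967 points on sequence 5 to 26.4 points on sequence 6. High numbers were found in 17 of 48 tandem, 18 of 70 nested and 13 of 166 divergent members; among members that are not nested the difference was 8.30 points with an exact permutation p of 0.0625.

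High-numbered genes had short coding regions in the members and elsewhere, with medians of 490.5 bp in the 48 members and 582 bp in the 509 other genes. With genes numbered up to 12000 alone, the coding length of members was still lower than that of other genes, by a mean difference of -282 ± 246 bp (exact permutation p = 0.0313, 7 sequences). Coding introns gave a less stable result. An intron inside the coding region was present in 71.7% ± 3.81 of members and 77.6% ± 1.61 of other genes, a difference of -5.84 ± 4.48 points (6 of 7 sequences below 0, exact permutation p = 0.0313, adjusted p = 0.0313). On sequence 5 it was 0.188 points, and the exact permutation p was 0.0625 whenever another sequence was left out. Without nested members the difference was 0.459 points (exact permutation p = 0.859), and among genes numbered up to 12000 it was 0.249 points (exact permutation p = 0.922). Among genes with an annotated 5' UTR it was -9.37 ± 6.68 points (exact permutation p = 0.0156). For the nested members alone it was -25.4 ± 5.35 points, below 0 by more than the spread between sequences (exact permutation p = 0.0156). Nesting favours genes of short span, which leaves less room for introns, so this value cannot be told apart from the choice of members.

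The UTRs of members differed from those of other genes in a manner that the choice of members partly sets, since a longer 5' UTR reaches further towards a neighbour. No 5' UTR was annotated for 87 members (30.7%) and for 1986 other genes (21.0%), and neither UTR for 77 (27.2%) and 1569 (16.6%). Where one was annotated, the 5' UTR had a median of 436 bp in 196 members and of 317 bp in 7461 other genes. The members thus held more genes with no 5' UTR and, among the rest, longer ones. Tandem members had a median 5' UTR of 355.5 bp, divergent members of 413.5 bp and nested members of 24.5 bp, genes without one included.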

How the data were processed

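The members, the groups of pairs and the tests were chosen with earlier results of these data known. The deposited file is a gene annotation in GTF format with no header, made by the authors from the NC12 gene calls per its source field. The sources used here do not say how it was edited. It holds positions in bp and no count or depth of any library (0 records with a score). The 2 N. crassa libraries themselves were not analysed here.

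Coding limits included the stop codon when a place was assigned, but coding length did not. A start was put in a coding exon if any transcript of the host had one there, then in a UTR exon, then in an intron. Exons, UTRs and coding length are those of the longest transcript by exonic length. The 7 sequences, each with at least 100 genes, were the units: SDs are over sequences and are no error of measurement. The 3 planned tests were exact two-sided sign-flip permutation tests over sequences, whose smallest p is 0.0156, with Benjamini-Hochberg adjustment over the 3. The alternatives were other spans, deeper starts, subsets of members, means, another identifier number and each sequence left out. Named genes are those with the deepest and the median start of each place and strand relation (depth is counted from the host's nearer edge), those with the longest shared spans, the most shared coding bases and the longest nested spans, and those in several overlaps. Other named genes, in small groups or at the extremes of a range, were chosen after their values were seen. The calculations used Python 3.11.15, NumPy 2.4.6 and matplotlib 3.10.9, and were tested on simulated data. No N. crassa genome sequence was used.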

Additional observations from a re-analysis of the deposited data

Results flagged for a closer look

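The difference in coding length between genes that begin inside another gene and all other genes was 64.5 bp on sequence 7, apart from the other 6 sequences, on which it was below 0. The members' median there, over 27 genes, was 1332 bp. Of 13 quantities checked over the 7 sequences this was the 1 that stood apart. Chance marks about 1 in 20 sets of 7 values, and that rate holds for each quantity, so 1 mark among 13 is not unusual by chance. The cause was not tested.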

How the results depend on the processing

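No paired analysis was possible because no result compares libraries, whose replicate numbers are the ones the labels give; the 3 tests instead set members against other genes of the same sequence. For 8 results 80 alternatives were run, of which 11 were added after seeing the data (identifiers to 12000, hosts left out of the other genes, nested members alone, genes with a 5' UTR alone), and 57 changed no call and moved no untested value beyond its spread. The cause of the changes was not tested. The share of genes that begin inside another gene, 2.79%, was 2.17% with starts at least 50 bases inside, 1.39% where both genes had a 5' UTR and 0.0542% between coding spans. Between coding spans 0 genes were nested and 100% of pairs were on opposite strands, on the 3 sequences with any. The mean overlap was 562 bp against a median of 299 bp. The difference in coding introns, -5.84 points, was -6.11 with starts at least 50 bases inside (exact permutation p = 0.109) and -3.96 for opposite strands (p = 0.25); it turned to 0.459 without nested members and to 0.249 for identifiers to 12000. That in identifiers was 8.30 points without nested members. Leaving out each sequence gave -471 to -365 bp for coding length, and it passed only without sequence 7 (otherwise exact permutation p = 0.0625). It gave -6.85 to -4.66 points for coding introns, passing only without sequence 5 (otherwise 0.0625), and 8.52 to 12.8 points for identifiers, passing in all 7 runs. In these runs 6 sequences allow no p below 0.0313. The annotation has no depth.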

Other observations

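At a few loci overlaps were joined. On sequence 1, NCU00798 (minus strand, 7131344 to 7132928) began inside NCU00799, in which it is nested, and 16 bp inside NCU00797, which lies upstream on its own strand. On sequence 7, NCU06075 held the starts of NCU06076, which diverges from it with a shared stretch of 965 bp, and of NCU06074, which is nested in its 3' UTR. NCU15835 on the same sequence, with a span of 8171 bp, held the nested NCU10016 on the opposite strand and, 30 bp inside its end, the start of the tandem NCU10015. On sequence 6, NCU17100 (1659084 to 1660221) began inside NCU05512 (1660009 to 1661247), and close by NCU17101 (1661693 to 1663403) was nested in NCU05511 (1661638 to 1665463).

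Member and host often carried consecutive identifiers. The numbers differed by 1 in 203 of the 284 pairs, in 128 of 166 divergent, 48 of 70 nested and 27 of 48 tandem ones. These counts take each divergent gene pair from both sides. No such comparison was made for neighbouring genes that do not overlap.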
